A study of Oryza sativa with 12 samples.

Results

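Genes for noncoding RNA carry identifiers that begin with ENSRNA in the rice annotation, and 949 of the 38978 genes in the count table are of this kind. The genes described here are the 74 of them that had at least 10 counts in at least 3 of the 12 libraries. They were thus chosen by their counts in all libraries, and a gene high in 1 genotype only can pass through that genotype's libraries alone. Of the other 875, 699 had no count in any library and 176 had counts below this limit. By the family names in the deposited tables, the 74 genes are 50 of 216 small nucleolar RNA genes, 14 of 97 microRNA precursors, 4 of 264 ribosomal RNA genes, 3 of 191 transfer RNA genes, 1 of 83 spliceosomal RNA genes, 1 of 2 genes for the RNA of the signal recognition particle and 1 of 89 self-splicing introns.

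Polyadenylated RNA was sequenced from embryos of wild type rice (NIP, *Oryza sativa* ecotype Nipponbare) and of *Oslec1-1*, a CRISPR/Cas9 frameshift line of *OsLEC1* in the same ecotype, at 7 days after pollination (DAP), called EE, and at 25 DAP, called LE. Each of the 4 groups, NIP EE, *Oslec1* EE, NIP LE and *Oslec1* LE, had 3 replicates. *OsLEC1* encodes a subunit of the NF-Y transcription factor that acts in embryo and seed development. All plants grew under long days in a greenhouse, the mutant is represented by 1 line, and the level of *OsLEC1* itself was not analysed here.

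A microRNA is cut from a hairpin within a longer primary transcript, which RNA polymerase II makes and to which a cap and a poly(A) tail are added. Libraries of polyadenylated RNA therefore count the primary transcript and not the mature microRNA. Small nucleolar RNAs guide the methylation and pseudouridylation of ribosomal RNA. In plants many of their genes stand in clusters or in introns of other genes, and the mature RNA has no poly(A) tail. Mature transfer RNA, ribosomal RNA and U6atac, a small RNA of the minor spliceosome, have no poly(A) tail either, so their reads in such libraries stand for precursors, tailed fragments or RNA carried over in the selection, which cannot be told apart here.

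The libraries held 16113922 to 27213238 counts on genes, and no pair of replicates held the same counts. EE and LE libraries carry different codes, whose meaning the labels do not give, so a stage cannot be told apart from what the codes stand for, and genotypes were compared within a stage. Nothing in the labels says whether replicates came from separate plants, and p-values measure the spread between these samples. The embryo marker genes fixed for this work (6 identifiers) summed to 19929 to 23004 normalized CPM in NIP EE and 688 to 806 in *Oslec1* EE, and to 2223 to 2556 in NIP LE and 568 to 815 in *Oslec1* LE, with none at 0 in all libraries of a group. Among the 6 are genes listed as oleosins, Em and VP1, which belong to seed maturation. The paper reports *OsABI3* and most changed *OsLEA* genes as lower in the mutant. A lower sum may thus be one of maturation genes or of embryo content, which cannot be told apart. The 6 embryo marker genes did not all move alike. At EE 4 were called lower and 1 higher in the mutant. At LE 5 fell and 1 rose at an adjusted p under 0.05, of which 1 was called, lower. Those of endosperm (9 identifiers), the storage tissue beside the embryo, summed to 3373 to 4267 in NIP EE and 28350 to 30283 in *Oslec1* EE, and 8 of 9 were called higher in the mutant. At LE they summed to 137 to 162 in NIP and 110 to 592 in *Oslec1*, and 5 of 7 tested were called higher while the other 2 fell at an adjusted p under 0.05.

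Positions were taken from the deposited tables, on the IRGSP-1.0 genome. The 74 genes lie on all 12 chromosomes at 55 separate places, and 32 of them stand in 13 clusters with gaps of under 2000 bases. Of these 32, 30 are small nucleolar RNA genes. A gene on the same strand covers 34 of the 74, namely 33 small nucleolar RNA genes and the *MIR1428* gene of chromosome 3, and 4 lie only within a gene of the opposite strand. The remaining 36, among them 13 of the 14 microRNA precursors, overlap no other listed gene. The tables give gene limits but no exons, so that exonic and intronic positions were not told apart. The library kit does not mark strand, and reads of a gene cannot be separated from those of a gene that overlaps it.

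Counts of these genes were low, and some lay close to the limit. The snoR101 gene ENSRNA049471527 passed with a third-highest count of 11, as did the snoZ266 gene ENSRNA049473866, while the snoZ105 gene ENSRNA049472690 and the snoZ118 gene ENSRNA049472073 stayed out with a third-highest count of 9. At least 10 counts in all 12 libraries were found for 11 of the 74. Another 10 reached 10 counts in libraries of 1 genotype only, so their difference between genotypes follows in part from the choice. Of these, 8 passed through *Oslec1-1* libraries, among them the *MIR1428* genes of chromosomes 1 and 5, *MIR529* and the mir-166 gene of chromosome 9, and 2 through NIP libraries, the *MIR1428* gene of chromosome 2 and the SNORD25 gene ENSRNA049473610. Some genes reached 10 counts in both genotypes but would not have passed without the libraries of 1 of them. They include the *MIR1428* gene of chromosome 7, through *Oslec1-1*, and the group II intron of chromosome 12, through NIP. The values of all these genes are given as a description.

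Genotypes were compared within a stage by edgeR's quasi-likelihood test, fitted to all genes. Called here means a Benjamini-Hochberg adjusted p below 0.05 together with a log2 fold change of 2 or more in size. At EE 47 of the 74 genes passed the filter on low counts. Of these, 5 were called higher in *Oslec1-1* and 0 lower, where 14.8% of all genes tested were called, 10.9% higher and 3.92% lower. DESeq2 also gave 0 lower calls of 8, and 0 were lower at an unadjusted p under 0.05 with the fold limit. Of the 5 genes called higher, 4 had become members through *Oslec1-1* libraries alone. The remaining gene, the *MIR1428* gene of chromosome 7, reached 10 counts in fewer than 3 NIP libraries and so also needed mutant libraries. The count is thus no independent support for a direction. Without the fold limit 12 were higher and 3 lower, where 57.0% of all genes passed, 30.3% higher and 26.7% lower. At LE 56 passed the filter, of which 4 were called higher and 1 lower, where 9.53% of all genes were called, 8.29% higher and 1.24% lower. DESeq2 called 9 at LE, 5 higher and 4 lower. Of the 4 called higher by edgeR, 3 had become members through *Oslec1-1* libraries alone, and the 1 called lower through NIP libraries alone. The remaining gene called higher is again the *MIR1428* gene of chromosome 7. Without the fold limit 6 were higher and 15 lower, where 47.0% of all genes passed, 25.6% higher and 21.3% lower.

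The genes called at EE and those called at LE were all microRNA precursors. The median log2 fold change of the tested members was 0.82 at EE, beside 0.03 over all genes, and −0.64 at LE, beside 0.02. Changes of precursors mostly held when a library was left out, and smaller changes often did not. Of 8 precursors past the adjusted p at EE without the fold limit, 7 stayed past it in each of the 6 fits with a library left out, and of 9 at LE, 7 did. Of the small nucleolar RNA genes, 1 of 5 at EE and 4 of 10 at LE did. The precursors that stayed past it include the *MIR1428* genes of chromosomes 1 and 5 and the mir-166 gene of chromosome 9 at both stages. They also include *MIR529* at EE and the *MIR1428* gene of chromosome 2 at LE. These became members only through libraries of the genotype in which they were high, so their staying is no independent support.

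**Figure D1:**
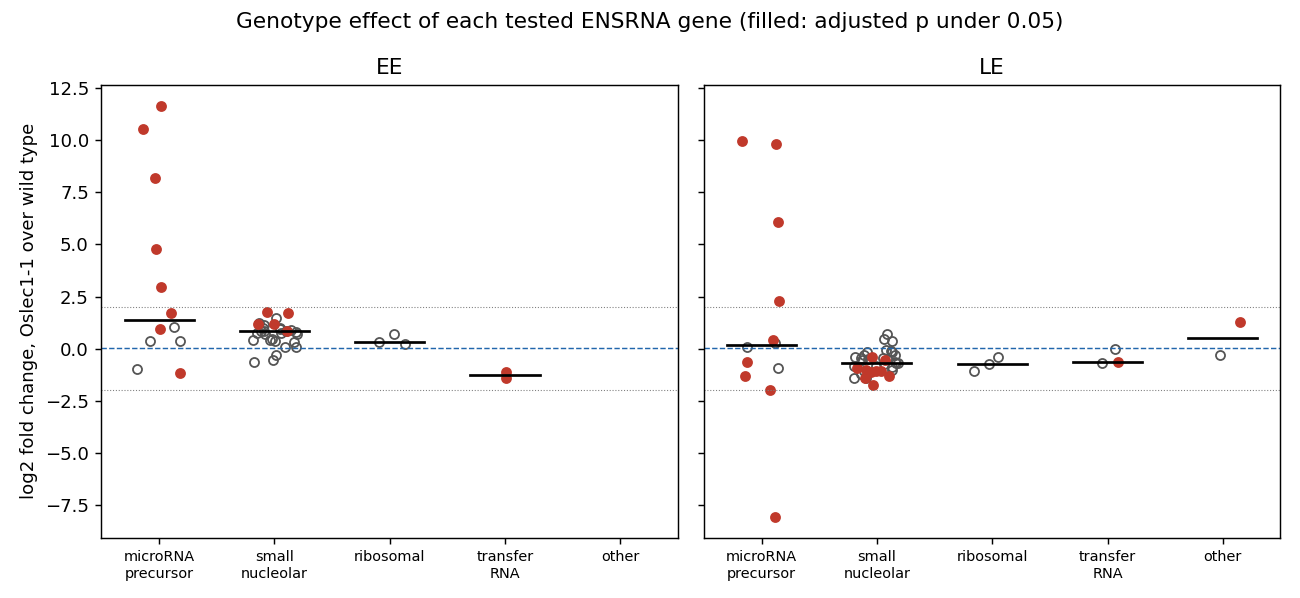
Log2 fold change of *Oslec1-1* over wild type for each ENSRNA gene tested at EE (left) and LE (right), by class, with black bars at class medians, a dashed line at the median of all genes and dotted lines at log2 fold changes of 2 and −2. Points beyond the dotted lines are microRNA precursors, while the 30 small nucleolar RNA genes at EE lie mostly above 0 and the 36 at LE mostly below it. Values of genes with no count in 1 genotype depend on the fit and are no bound.

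Of the 14 microRNA precursors, 5 belong to the *MIR1428* family, for which 13 genes are listed, 4 of them with no count and 4 below the limit. The genes did not share a pattern: 3 were seen almost only in *Oslec1-1* embryos and 1 almost only in NIP LE. The fifth, on chromosome 3, was low and even. Together the 5 genes had 6 to 11 counts in the NIP EE libraries, 571 to 1060 in *Oslec1* EE, 185 to 345 in NIP LE and 1455 to 1825 in *Oslec1* LE. In *Oslec1* LE they held 71.8% to 77.6% of the counts on the 14 precursors, and in NIP EE 5.42% to 6.29%.

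The *MIR1428* gene of chromosome 7 (ENSRNA049467742, 5451322 to 5451445, minus strand) had the highest level of them. It had 0 counts in each NIP EE library and 707, 597 and 210 counts in *Oslec1* EE replicates 1, 2 and 3. The groups did not overlap, and replicate 3 was the lowest of the mutant libraries, with 8.65 normalized CPM against 26.8 and 27.3. The mutant mean was 97.6 times what 3 counts per NIP library would give (edgeR adjusted p = 6.6e-05). Fewer than 3 NIP libraries reached 10 counts, so the gene needed mutant libraries to become a member. Its difference at both stages thus follows in part from the choice. In bulk samples such a difference may be one of RNA per cell or of the number of cells of a type, which cannot be told apart.

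At LE the gene of chromosome 7 had 8, 14 and 17 counts in NIP and 894, 1183 and 941 in *Oslec1-1*. The mutant was higher by a log2 fold change of 6.05 ± 0.25 (SE, n = 3 per group, edgeR adjusted p = 7.1e-06). The normalized CPM was 0.60 ± 0.14 (SD) in NIP and 40.6 ± 9.0 in *Oslec1-1*, and no mutant library came near the NIP range. The annotated gene Os07g0200900 ends 748 bases before it on the plus strand, and was itself higher in the mutant, by 4.78 ± 0.41 at EE (adjusted p = 6.7e-06) and 4.04 ± 0.24 at LE (adjusted p = 3.1e-05). Os07g0201100, which begins 727 bases after it on the plus strand, was higher by 0.85 ± 0.13 at EE (adjusted p = 0.00041) and 0.60 ± 0.09 at LE (adjusted p = 0.0017). Whether these genes and the precursor share a transcript was not tested.

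The gene of chromosome 1 (ENSRNA049472788, 13160777 to 13160900, plus strand) had 0 counts in all NIP EE libraries and 276, 151 and 273 in *Oslec1* EE. The mutant was at least 44.5-fold higher at EE (edgeR adjusted p = 5.2e-06). At LE a single count was found in NIP, in replicate 1, against 452, 467 and 466 in *Oslec1-1*. The ratio of the summed normalized counts was 1181, with a counting interval of 212 to 46663 at 95% that covers counting error only (edgeR adjusted p = 6.5e-06). Membership came through *Oslec1-1* libraries alone, so the difference at both stages follows in part from the choice. The nearest listed genes lie 15835 bases before and 9896 bases after it, and the first of them changed by 0.59 ± 0.10 at EE and 0.36 ± 0.21 at LE on the log2 scale.

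The gene of chromosome 5 (ENSRNA049472543, 18947050 to 18947173, minus strand) had 0 counts in all 6 NIP libraries. It had 59, 17 and 63 counts in *Oslec1* EE and 84, 157 and 152 in *Oslec1* LE. Every mutant library was above every NIP library at both stages, as for 34.3% of all genes at EE and 30.7% at LE. The gene had become a member through *Oslec1-1* libraries alone, so this separation follows in part from the choice. Against 3 counts per NIP library, the mutant mean was 8.72-fold higher at EE (edgeR adjusted p = 0.00074) and 37.2-fold higher at LE (edgeR adjusted p = 0.00066). Its neighbour Os05g0390550, 4160 bases before it, had values of −0.36 ± 0.24 at EE and 0.08 ± 0.20 at LE. Os05g0390800, 11713 bases after it, had values of 0.99 ± 0.46 (adjusted p = 0.093) and 1.18 ± 0.43 (adjusted p = 0.056).

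The gene of chromosome 2 (ENSRNA049472287, 2535029 to 2535152, plus strand) went the other way. It had 168, 307 and 314 counts in NIP LE and 2, 1 and 0 in *Oslec1* LE. The ratio of NIP to mutant was 309, with a counting interval of 105 to 1499 (edgeR adjusted p = 1.3e-05), and no other ENSRNA gene was called lower in the edgeR fits on the 6 libraries of a stage after the filter. At EE it had 0 counts in NIP and 0, 1 and 0 in *Oslec1-1*, and was not tested. Its level thus rested on the NIP LE libraries alone, at 9.88 to 13.9 normalized CPM. These libraries also made it a member, so its difference at LE follows in part from the choice. The listed genes on both sides, 12537 and 13605 bases away, were lower at LE by −0.64 ± 0.12 and −0.47 ± 0.09.

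The gene of chromosome 3 (ENSRNA049473244, 32932680 to 32932803, minus strand) lies within Os03g0791800 on the same strand. It had 11, 9 and 6 counts in NIP EE, 18, 15 and 25 in *Oslec1* EE, 8, 21 and 14 in NIP LE and 23, 17 and 12 in *Oslec1* LE. The groups overlapped in normalized CPM at both stages, and the log2 fold change was 0.38 ± 0.39 at EE (adjusted p = 0.42) and 0.06 ± 0.36 at LE (adjusted p = 0.90). The gene that holds it changed by 0.56 ± 0.11 at EE. A difference of this size was not detectable at its depth.

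**Figure D2:**
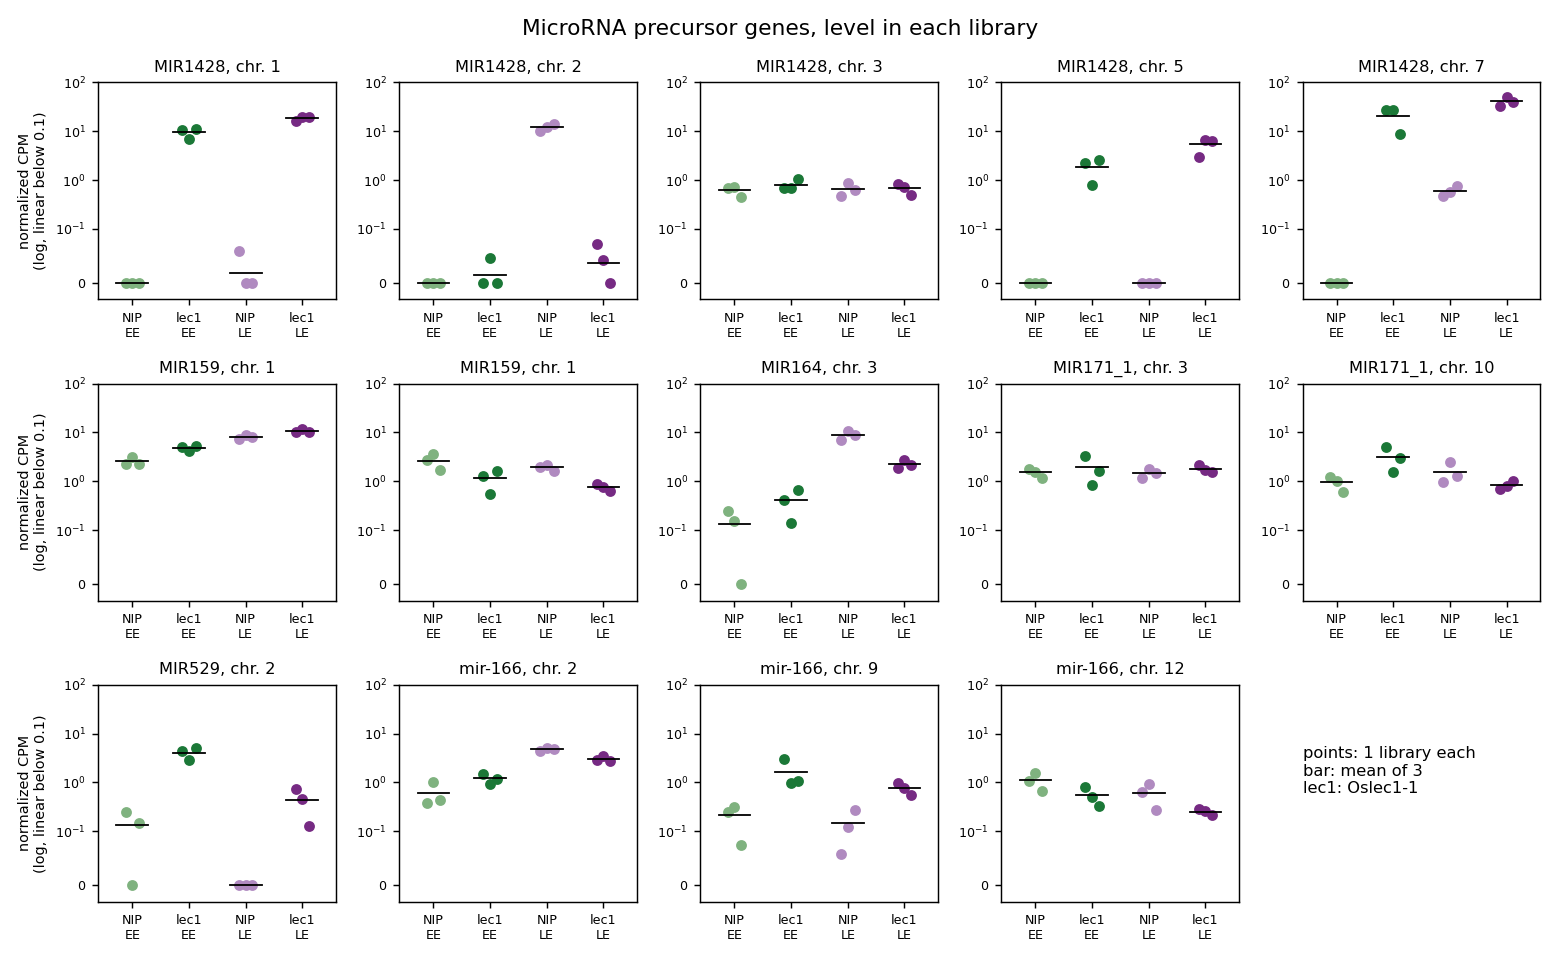
Normalized CPM of the 14 microRNA precursors in each of the 12 libraries, on an axis that is logarithmic above 0.1 and linear below, with a bar at each mean of 3 libraries. The *MIR1428* genes of chromosomes 1, 5 and 7 and *MIR529* are high in *Oslec1-1*, the *MIR1428* gene of chromosome 2 is at 9.88 to 13.9 in NIP LE and at or near 0 elsewhere, and the 2 *MIR159* genes differ in direction.

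*MIR529*, *MIR159*, *MIR164*, *MIR166* and *MIR171* are families shared by many land plants. In these the mature microRNAs guide the cleavage of messages for transcription factors, namely SPL proteins for miR529, GAMYB-like proteins for miR159, NAC proteins for miR164, class III HD-ZIP proteins for miR166 and GRAS proteins of the SCL group for miR171. The tables name families and not numbered copies, so copies are given by chromosome. Those other than the called genes and the members with the highest levels were described after their values were seen, to account for all 14 precursors.

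The *MIR529* gene of chromosome 2 (ENSRNA049469250, 16227790 to 16227920, plus strand) had 4, 0 and 2 counts in NIP EE and 116, 63 and 120 in *Oslec1* EE. It was higher in the mutant by a log2 fold change of 4.80 ± 0.53 (edgeR adjusted p = 3.9e-05). At LE it had 0 counts in each NIP library and 20, 11 and 3 in *Oslec1-1*, too few for the filter. Every mutant library was thus above every NIP library at both stages, which follows in part from the choice, as the gene became a member through *Oslec1-1* libraries alone. At LE the mutant mean was 3.03 times what 3 counts per NIP library would give. That level is 0.14 normalized CPM, and the lowest mutant library was at 0.13.

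Of the 3 members of the mir-166 family, the gene of chromosome 9 (ENSRNA049476067, 16951822 to 16951928, plus strand) was called at both stages. It had 4, 4 and 1 counts in NIP EE and 78, 21 and 26 in *Oslec1* EE, and was higher by 2.95 ± 0.66 (edgeR adjusted p = 0.0035). Replicate 1 of the mutant was above the others. At LE the counts were 1, 3 and 6 in NIP and 27, 18 and 13 in *Oslec1-1*, a log2 fold change of 2.26 ± 0.52 (edgeR adjusted p = 0.0099). Without NIP LE replicate 1 it was 1.97, under the limit of 2, and on log2(FPKM + 1) it was 1.66 at EE and 0.90 at LE. Membership of this gene rested on *Oslec1-1* libraries alone, so its differences follow in part from the choice.

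The other mir-166 genes were not called. That of chromosome 2 (ENSRNA049471001) had 6, 13 and 6 counts in NIP EE and 40, 20 and 29 in *Oslec1* EE, a log2 fold change of 1.02 ± 0.44 (adjusted p = 0.073). At LE it had 75, 125 and 107 counts in NIP and 81, 80 and 65 in *Oslec1-1* and fell by −0.66 ± 0.17 (adjusted p = 0.015, past 0.05 in 4 of 6 fits with a library left out), and its effects at the stages differed by −1.71 ± 0.43 (adjusted p of the interaction 0.0093). That of chromosome 12 (ENSRNA049467117) had a value of −0.99 ± 0.46 at EE (adjusted p = 0.091). It was not tested at LE, with 11, 23 and 6 counts in NIP and 8, 6 and 5 in *Oslec1-1*.

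The 2 *MIR159* genes, both on chromosome 1, moved in opposite directions. ENSRNA049471381 (1215030 to 1215219) had 37, 40 and 30 counts in NIP EE and 134, 92 and 129 in *Oslec1* EE, and rose by 0.94 ± 0.22 (adjusted p = 0.0052). At LE it rose by 0.41 ± 0.13 (adjusted p = 0.034), from 7.97 ± 0.75 to 10.6 ± 1.0 normalized CPM (SD, n = 3). ENSRNA049471366 (6693112 to 6693301) fell at both stages, by −1.18 ± 0.41 at EE (adjusted p = 0.033) and −1.31 ± 0.26 at LE (adjusted p = 0.0058). It had 33, 53 and 37 counts in NIP LE and 25, 18 and 15 in *Oslec1* LE, without overlap. The difference between the stages was not past the threshold for either gene (adjusted p of the interaction 0.085 and 0.84). With a library left out, the rise of the first at LE was past 0.05 in 2 of 6 fits and the fall of the second at EE in 2 of 6, while its fall at LE was in all 6.

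*MIR164* (ENSRNA049475964, chromosome 3, 10542157 to 10542288, plus strand) had its highest counts in NIP LE. It had 4, 2 and 0 counts in NIP EE and 116, 259 and 198 in NIP LE, between which the library codes also differ. In *Oslec1-1* it had 11, 3 and 16 counts at EE and 52, 64 and 52 at LE. At LE the mutant was lower by −1.96 ± 0.22 (edgeR adjusted p = 0.00047), just short of the fold limit and so not called. Without NIP LE replicate 1 or *Oslec1* LE replicate 2 the value was −2.10 or −2.11, and the gene was called.

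Of the 2 *MIR171_1* genes, that of chromosome 3 (ENSRNA049474010) had values of 0.35 ± 0.47 at EE and 0.29 ± 0.26 at LE (adjusted p = 0.55 and 0.40). That of chromosome 10 (ENSRNA049467907) had 20, 13 and 8 counts in NIP EE and 132, 34 and 72 in *Oslec1* EE, and rose by 1.73 ± 0.46 (adjusted p = 0.0096). At LE its value was −0.92 ± 0.40 (adjusted p = 0.097), and the effects at the stages differed by −2.68 ± 0.67 (adjusted p of the interaction 0.0083). Over the 12 precursors tested at each stage, 7 rose and 1 fell at EE without the fold limit, where 30.3% of all genes rose and 26.7% fell. At LE 5 rose and 4 fell, where 25.6% and 21.3% did. Of those that rose, 4 at EE and 3 at LE had become members through *Oslec1-1* libraries alone. The choice of members thus bears on these counts and on the medians. The median log2 fold change of the 12 was 1.37 at EE and 0.17 at LE, with genes at 0 set at their fold against 3 counts per library or not.

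Levels between genes were compared per length, as FPKM. Among the precursors of *Oslec1* EE, the *MIR1428* gene of chromosome 7 led with a median of 97.2 FPKM, before that of chromosome 1 with 40.5 and the *MIR159* gene ENSRNA049471381 with 8.81. In NIP EE the first was the same *MIR159* gene with a median of 3.35, and the *MIR171_1* gene of chromosome 3 followed with 3.30, within its range of 2.29 to 4.35. In NIP LE *MIR164* was first with 34.3 FPKM (23.9 to 38.4) and the *MIR1428* gene of chromosome 2 had 29.8 (25.7 to 33.9), ranges that overlapped. In *Oslec1* LE the *MIR1428* gene of chromosome 7 led again with 127 FPKM, and *MIR164* had 9.53.

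As context, 10 identifiers had been listed for proteins of small RNA pathways, of which 9 were tested at each stage. None was called at either stage by edgeR, and their log2 fold changes lay between −1.27 and −0.23 at EE and between −0.31 and 1.02 at LE. Without the fold limit 0 rose and 7 fell at EE, where 30.3% of all genes rose and 26.7% fell, and 4 rose and 0 fell at LE, where 25.6% rose and 21.3% fell. Their median log2 fold changes were −0.82 and 0.13, beside 0.03 and 0.02 over all genes.

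The 50 small nucleolar RNA genes made up most of the members but few of the counts. They are 63 to 159 bases long, and each library held 462 to 1901 counts on all 50. Summed normalized CPM was 38.9 ± 4.5 in NIP EE, with 39.3, 43.1 and 34.2 in replicates 1, 2 and 3, and 58.1 ± 13.4 in *Oslec1* EE, with 72.1, 45.6 and 56.6. It was 65.7 ± 1.4 in NIP LE, with 66.7, 64.1 and 66.3, and 48.4 ± 3.3 in *Oslec1* LE, with 46.0, 52.1 and 47.1 (SD, n = 3). The mutant libraries thus lay above NIP at EE, where replicate 1 was high and replicate 2 close to the NIP range, and below NIP at LE. The same held for the sum over all 216 listed genes of this class, at 44.0 ± 5.4 and 66.3 ± 14.5 at EE and 75.2 ± 2.6 and 53.1 ± 3.0 at LE. This sum includes the 50 members, which held most of it, and is no separate support.

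**Figure D3:**
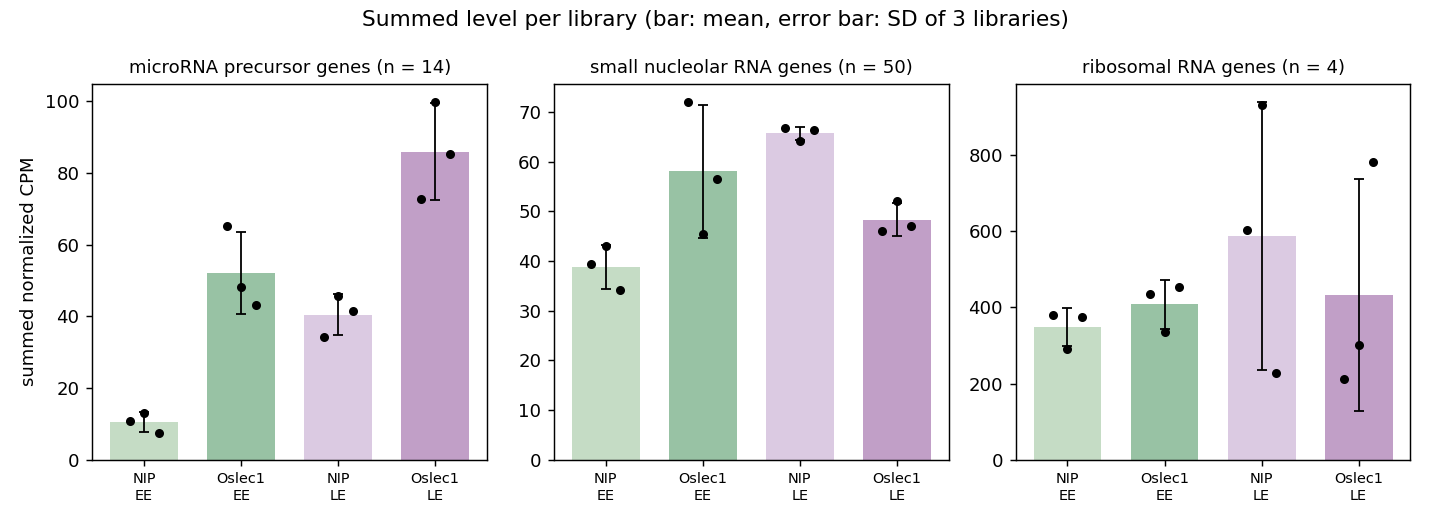
Summed normalized CPM per library of the microRNA precursors, the small nucleolar RNA genes and the ribosomal RNA genes with at least 10 counts in 3 libraries, with bars at the mean of 3 libraries, error bars of 1 SD and 1 point per library. The small nucleolar RNA sums are 34.2 to 43.1 in NIP EE and 45.6 to 72.1 in *Oslec1* EE, then 64.1 to 66.7 in NIP LE and 46.0 to 52.1 in *Oslec1* LE, and the ribosomal sums spread widely within both LE groups.

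Gene by gene, 30 of the 50 were tested at EE, and 27 had a positive and 3 a negative log2 fold change, with a median of 0.83. With scaling by library size alone all 30 were positive, but that scaling also moved the median of all genes at EE upward. The 3 libraries of each genotype did not overlap for 12 of them, all higher in the mutant, where 34.3% of all genes gave no overlap with the mutant higher. At an adjusted p under 0.05 5 of the 30 rose, where 30.3% of all genes did, and none was called by edgeR, also at an unadjusted p with the fold limit (0), while DESeq2 called 3 of the 50. At LE 36 were tested, 33 of them negative, with a median of −0.67 and 10 past the adjusted p, all lower, where 21.3% of all genes were. The groups did not overlap for 19, all lower in the mutant, beside 27.9% of all genes. None was called by edgeR at LE (0 at an unadjusted p with the fold limit), and DESeq2 called 1. Without *Oslec1* EE replicate 1 the median at EE was 0.61, with 23 of 30 positive.

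For 25 small nucleolar RNA genes tested at both stages, 20 were positive at EE and negative at LE, 3 positive at both, 2 negative at both and 0 negative at EE and positive at LE. The interaction of genotype and stage tests whether the effect at LE differs from that at EE. It was past an adjusted p of 0.05 in 16 of 69 members tested, where all genes gave 33.4%. Of these 16, 15 had a lower effect at LE and 1 a higher one, while all genes gave 16.7% in each direction. Small nucleolar RNA genes were 10 of the 16 and 45 of the 69 tested, a like share. The median difference was −1.31 over the members and −0.04 over all genes.

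**Figure D4:**
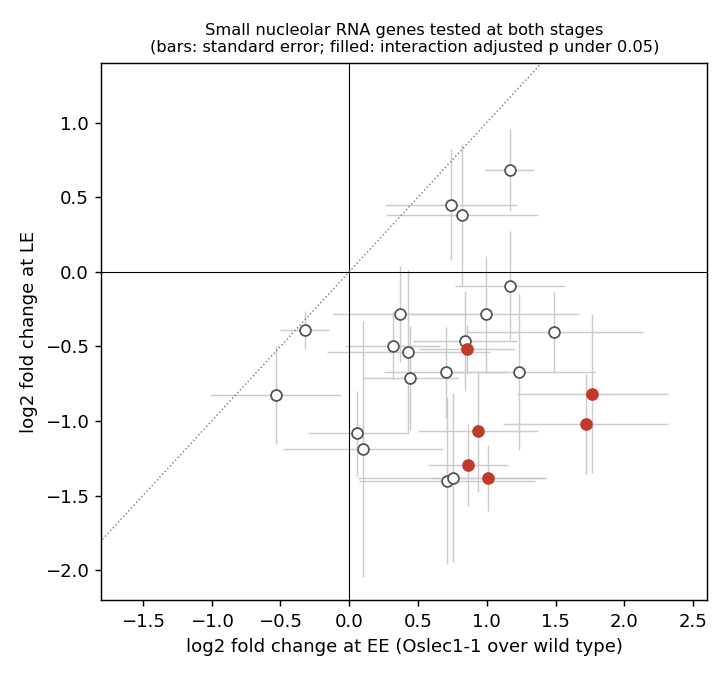
Log2 fold change of *Oslec1-1* over wild type at EE (horizontal) and LE (vertical) of the 25 small nucleolar RNA genes tested at both stages, with standard errors, where filled points have an interaction at an adjusted p under 0.05 and the dotted line marks equal effects. Of the 25 points, 20 lie at the lower right, positive at EE and negative at LE.

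The smallest adjusted p of the interaction belonged to the snoR60 gene ENSRNA049465412 of chromosome 5 (4561294 to 4561368, plus strand). It had 14, 14 and 18 counts in NIP EE, 53, 40 and 52 in *Oslec1* EE, 41, 58 and 47 in NIP LE and 28, 27 and 15 in *Oslec1* LE. The effect was 0.87 ± 0.29 at EE (adjusted p = 0.028) and −1.29 ± 0.28 at LE (adjusted p = 0.0075), and the difference was −2.19 ± 0.38 (adjusted p = 0.00085). The snoR60 gene ENSRNA049465423, within 2000 bases of it, had 19, 6 and 12, then 47, 24 and 56, then 51, 75 and 64, and last 38, 25 and 23 counts in the same order of groups. It differed by −2.41 ± 0.47 (adjusted p = 0.0019). Both lie within Os05g0176000 on the same strand, which changed by 0.35 ± 0.12 at EE and −0.44 ± 0.09 at LE (adjusted p = 0.028 and 0.0066), in the same directions and less.

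Another 2 of the 5 interactions with the smallest p belonged to other small nucleolar RNA families. The snoR117 gene ENSRNA049470113 of chromosome 6 had 3, 1 and 1 counts in NIP EE, 18, 12 and 9 in *Oslec1* EE, 12, 11 and 11 in NIP LE and 6, 4 and 4 in *Oslec1* LE. The groups did not overlap at either stage, and the difference was −3.68 ± 0.69 (adjusted p = 0.0015). The SNORD14 gene ENSRNA049473653 of chromosome 4 had 4, 4 and 3 counts in NIP EE and 29, 9 and 20 in *Oslec1* EE. At LE it had 28, 39 and 31 in NIP and 20, 21 and 14 in *Oslec1-1*, and the effects differed by −2.66 ± 0.56 (adjusted p = 0.0032).

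The fifth, U6atac (ENSRNA049473635, chromosome 4, 24502938 to 24503061, plus strand), had the opposite order. It had 12, 8 and 16 counts in NIP EE, 8, 3 and 5 in *Oslec1* EE, 7, 14 and 8 in NIP LE and 17, 35 and 29 in *Oslec1* LE. It was not tested at EE, rose at LE by 1.28 ± 0.43 (adjusted p = 0.043, past 0.05 in 1 of 6 fits with a library left out), and the difference between the stages was 3.19 ± 0.66 (adjusted p = 0.0027). All 5 of these interactions were past the threshold with each of the 12 libraries left out in turn.

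The small nucleolar RNA genes with the highest counts differed in their effects. The snoR86 gene ENSRNA049464972 of chromosome 12 had a normalized CPM of 11.4 ± 2.5 in NIP EE and 9.11 ± 1.08 in *Oslec1* EE, and of 15.4 ± 1.6 and 11.8 ± 1.3 at LE. Its log2 fold change was −0.32 ± 0.18 at EE (adjusted p = 0.15), which turned to 0.36 under library size scaling, and −0.39 ± 0.13 at LE (adjusted p = 0.039). The snoJ33 gene ENSRNA049471555 of chromosome 1 had 53, 38 and 39 counts in NIP EE and 197, 147 and 155 in *Oslec1* EE, and rose by 1.17 ± 0.18 (adjusted p = 0.00038). At LE its value was 0.68 ± 0.27 (adjusted p = 0.076), 1 of the 3 positive ones. The SNORD14 gene ENSRNA049473661 had a value of 0.86 ± 0.35 at EE (adjusted p = 0.060) and fell by −0.52 ± 0.17 at LE (adjusted p = 0.037).

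The 33 small nucleolar RNA genes within a gene of the same strand lie in 20 such genes, and had between 0.117% and 35.7% as many counts as the gene around them. At EE 19 of them were tested, and 14 had a higher and 5 a lower log2 fold change than that gene. At LE 24 were tested, and 4 were higher and 20 lower. The medians were 0.75 at EE and −0.69 at LE for the small nucleolar RNA genes and 0.22 and −0.30 for the genes around them. Of the 20 genes around them, 5 rose and 1 fell at EE without the fold limit, where 30.3% of all genes rose and 26.7% fell. At LE 0 rose and 7 fell, where 25.6% and 21.3% of all genes did. The changes of the 20 lay between −0.86 and 1.24 at EE and between −0.83 and 0.35 at LE, inside the fold limit. The 11 and 12 tested genes outside a gene of the same strand had medians of 0.86 and −0.51. Members of 1 gene or cluster share a transcript or a place and are no separate measurements.

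The 4 ribosomal RNA genes held the most counts. The SSU gene ENSRNA049476437 of chromosome 9 (11554 to 13364, plus strand) had 5417, 3422 and 4404 counts in NIP EE, 9912, 6594 and 9772 in *Oslec1* EE, 8487, 21012 and 4629 in NIP LE and 5494, 6656 and 17112 in *Oslec1* LE. Both LE groups held a library far above the others, replicate 2 in NIP and replicate 3 in *Oslec1-1*, and the genotypes overlapped. The log2 fold change was 0.22 ± 0.14 at EE (adjusted p = 0.20) and −0.38 ± 0.60 at LE (adjusted p = 0.63), which became 0.18 without NIP LE replicate 2 and −1.12 without *Oslec1* LE replicate 3. The sum over the 4 genes was 228 to 932 normalized CPM in NIP LE and 213 to 780 in *Oslec1* LE. None of the 3 tested at a stage passed an adjusted p of 0.05 by edgeR (0 at an unadjusted p), and DESeq2 called 1 of the 4, the 5.8S gene, lower at LE.

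Counts and FPKM differed for these repeated genes. The SSU gene ENSRNA049476430 of chromosome 9 (3626 to 5436, plus strand) had 289 to 1837 counts, and the counts of ENSRNA049476437 were 5.13 to 14.8 times as many, while the ratio of their FPKM lay between 0.892 and 0.968. The read coverage per counted read was 0.60 for ENSRNA049476437, 6.74 for ENSRNA049476430 and 41.1 for the 5.8S gene (ENSRNA049476493), as medians over libraries. Over 2 per counted read were found in 6 of the 74 genes: these last 2, the SSU gene of chromosome 2 and the SNORD18, SNOR75 and U54 genes ENSRNA049472915, ENSRNA049473206 and ENSRNA049465347. FPKM of these genes thus includes reads that the counts do not hold. A value under 2 does not show that counts are complete, as a read spans a smaller part of a longer gene. This bears on ENSRNA049476437, which is 1811 bases long. The 5 *MIR1428* genes, of 124 bases, had at most 1.98 in any library. Another 2 members, the *MIR1428* gene of chromosome 2 and the group II intron of chromosome 12, were listed at an FPKM of 0 in a library that had counts.

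**Figure D5:**
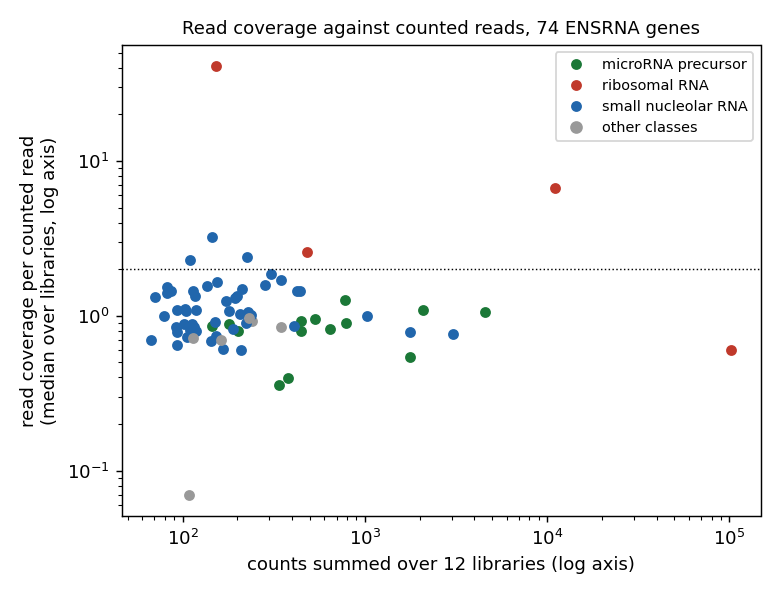
Read coverage per counted read (median over libraries, vertical, log axis) against counts summed over 12 libraries (horizontal, log axis) for the 74 genes by class, with a dotted line at 2. Above the line stand 3 ribosomal RNA genes, at 2.57, 6.74 and 41.1, and 3 small nucleolar RNA genes. The ribosomal gene with the most counts is at 0.60, which does not show that its counts are complete.

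The group II intron of chromosome 12 (ENSRNA049464427) had 2, 8 and 0 counts in NIP EE, 5, 2 and 10 in *Oslec1* EE, 28, 11 and 37 in NIP LE and 0, 3 and 3 in *Oslec1* LE. It did not pass the filter at either stage, and at LE every mutant library was below every NIP library. It was called lower at LE in each of the 8 alternatives that tested it, by −3.22 to −4.26 on the log2 scale. These alternatives share libraries. Without the NIP LE libraries, where its counts were highest, the gene would not have become a member, so these calls are no independent support. The read coverage per counted read was only 0.070 as a median over libraries, and FPKM in NIP LE was 0.10 to 0.27. This gene was named after its values were seen.

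The 3 transfer RNA genes carry the name tRNA-Gln and lie within Os02g0250700 of chromosome 2 on the opposite strand. ENSRNA049448834 had 16, 21 and 15 counts in NIP EE and 18, 11 and 12 in *Oslec1* EE, and fell by −1.13 ± 0.36 at EE (adjusted p = 0.023) and −0.64 ± 0.21 at LE (adjusted p = 0.039). ENSRNA049448783 fell by −1.42 ± 0.54 at EE (adjusted p = 0.044) and had a value of −0.70 ± 0.32 at LE (adjusted p = 0.11). With a library left out, the falls at EE were past 0.05 in 3 and 2 of 6 fits and that at LE in 0 of 6. The gene that holds them fell by −1.02 ± 0.16 at EE and had a value of −0.34 ± 0.14 at LE, and without strand its reads cannot be separated from theirs.

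Marker sums also differed between the genotypes, except that the endosperm sums overlapped at LE. The endosperm sum was higher in all *Oslec1* EE libraries than in NIP EE, as were the 5 called precursors, and at LE it was 137 to 162 in NIP and 110, 276 and 592 in the mutant. The embryo sum, which holds genes of seed maturation, was lower in *Oslec1-1* at both stages, while 1 of its 6 genes was higher at each. The part of either in the results was not tested.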

How the data were processed

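Rice embryo RNA was profiled in 12 libraries, 3 for each of NIP EE, *Oslec1* EE, NIP LE and *Oslec1* LE. According to the paper's methods and the submitters' processing notes, the authors trimmed reads with Trimmomatic 0.36, mapped them with HISAT2 2.1.0 to IRGSP-1.0 and ran StringTie 1.3.4d. The deposited counts are whole reads per gene without normalization, and the program that counted them is not given in the sources used here. The authors' FPKM, TPM and coverage values per gene come in the form that StringTie writes. TPM was not used here, the deposited FPKM served for levels per length and for alternatives, and the deposited coverage signal was set against counts. Entries that name no gene numbered 0.

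Counts were tested in R 4.3.3 with edgeR 4.0.16 (filterByExpr, TMM, quasi-likelihood test) on the 6 libraries of a stage and all genes, with Benjamini-Hochberg adjustment over all genes tested, and the interaction on 12 libraries. Called means an adjusted p below 0.05 with a log2 fold change of 2 or more in size. Normalized CPM is the count divided by the TMM effective library size, on the CPM scale. For groups with 0 counts, folds are the mean of the other group against 3 counts per library. The tests were tested on simulated data. Python 3.11.15, pandas 2.3.3, numpy 2.4.6, scipy 1.17.1 and matplotlib 3.10.9 made tables and plots.

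The members, lists and tests were chosen with earlier results of these data known. Genes were named by rule: the 10 highest by mean normalized CPM, all called members, the 5 smallest interaction p and the 2 on each side of the count limit. Classes follow the family names in the tables. Family names were the only annotation used for ENSRNA genes. Other identifiers were left without names, apart from the embryo markers named above. A list of small nucleolar RNA protein genes was not used here. Alternatives were DESeq2 1.42.0, all 12 libraries in 1 fit, scaling by RLE factors, by library size, or by TMM leaving out the 50 genes with the most counts, every gene with a count or those with 10 or more counts in each library, the replicate number as a block, no fold limit, glmTreat against the fold limit, limma 3.58.1 on log2(FPKM + 1) or log2(FPKM + 0.1) of genes with an FPKM of at least 0.5 in 3 libraries, other choices of members, and each replicate left out.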

Additional observations from a re-analysis of the deposited data

Results flagged for a closer look

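The genotype effect differed between the stages, by the interaction test of edgeR at an adjusted p under 0.05, in 16 ENSRNA genes. Values are the effect at LE minus that at EE on the log2 scale. The 5 with the smallest adjusted p are described above: the snoR60 genes ENSRNA049465412 (−2.19) and ENSRNA049465423 (−2.41), snoR117 ENSRNA049470113 (−3.68), SNORD14 ENSRNA049473653 (−2.66) and U6atac ENSRNA049473635 (3.19), the only one with a higher effect at LE.

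Of the microRNA precursors, *MIR164* ENSRNA049475964 differed by −3.49 ± 0.78 (adjusted p = 0.0045), *MIR171_1* ENSRNA049467907 by −2.68 and mir-166 ENSRNA049471001 by −1.71. The *MIR1428* gene of chromosome 2, ENSRNA049472287, had a fitted difference of −9.92 ± 2.93 (adjusted p = 0.024). It had 1 count in all EE libraries together, so the size of this value depends on the fit, and without *Oslec1* EE replicate 2, which holds that count, the difference was not past the threshold.

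The others were chosen after their values were seen. They are snoZ102_R77 ENSRNA049471325 (−2.76), U54 ENSRNA049465332 (−2.04), snoZ105 ENSRNA049467602 (−2.54), SNORD14 ENSRNA049473661 (−1.40), 5.8S ribosomal RNA ENSRNA049476493 (−3.14), snoZ103 ENSRNA049471251 (−2.61) and SNOR75 ENSRNA049473206 (−2.14). With each of the 12 libraries left out in turn, snoZ102_R77 was past the threshold in all 12 fits, U54 and this SNORD14 gene in 10, snoZ105 in 9, the 5.8S gene in 7, and snoZ103 and SNOR75 in 4 each. *Oslec1* EE replicate 1 was among the libraries without which U54, snoZ105, SNORD14, snoZ103 and SNOR75 lost the threshold.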

How the results depend on the processing

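The number of members called at EE was 5 and became 8 with DESeq2, 9 with library size only, 8 with no filter, 15 without a fold limit, 12 on log2(FPKM + 0.1) and 0 with at least 10 counts in every library, where 11 members were tested (0 past the fold limit at an unadjusted p). At LE it was 5 and became 9 with DESeq2, 8 with all 12 libraries in 1 fit, 8 with no filter, 21 without a fold limit and 0 with at least 10 counts in every library, where 31 were tested (0 at an unadjusted p). The 16 interactions became 40 with library size only, which moved the median log2 fold change of all genes at EE from 0.03 to 0.70, and 3 with at least 10 counts in every library. With a replicate left out, the counts were 6 to 10 at EE, 6 to 9 at LE and 11 to 21 for the interaction, and 5, 4 to 5 and 11 to 16 of the main calls were kept. The median of the small nucleolar RNA genes, an alternative added after seeing the data, was 1.49 at EE with library size only, against 0.70 over all genes, and kept its sign at both stages in every alternative run for it. Values turned for SSU ENSRNA049476437 at LE without NIP LE replicate 2 (0.18, and −1.12 to 0.18 over all libraries left out) and for snoR86 ENSRNA049464972 at EE with library size only (0.36), on log2(FPKM + 1) (0.41) and on log2(FPKM + 0.1) (0.43). The cause was not tested. Of 452 alternatives for named members, 441 kept direction and side of the threshold. Members were named by their levels and results in these same data. A gene uncalled in both fits with the same sign counted as kept, so this number is no independent support.

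Deviations of libraries with the same replicate number correlated at 0.13, −0.02 and −0.07 at EE and 0.47, −0.04 and 0.26 at LE, so the numbers were not taken as pairs. With the replicate block 5 members were called at EE, 5 at LE and 16 for the interaction, and it changed no other call. DESeq2 and FPKM were not run for the interaction. Members had 67 counts or more in all 12 libraries together, and for many the depth shows only large differences.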
